A study of Homo sapiens with 14 samples.

Results

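The set described here holds the genes that were near silent in young IMR90 cells and on in old ones, in both isolates studied. A gene entered when its estimated reads, summed over its transcripts, came to at most 10 in each of the I79 young and I10 young tables and to at least 100 in each of the I79 old and I10 old tables. Pregnancy-specific glycoprotein (PSG) genes were left out by name. Of 57792 genes in these tables, 10 met the rule: KISS1, SLC8A1-AS1, HBD, PURPL, CLEC2B, ANKRD1, TMEM178B, SEMA6A and the genes known here only by the identifiers ENSG00000284931 and ENSG00000290652. By annotation 7 were protein coding and 3 were long noncoding RNAs (lncRNAs). The young and old values therefore chose the genes, and they are given as a description without a test.

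IMR90 is an established line of human fetal lung fibroblasts, and poly(A)-selected RNA was sequenced from 7 groups of it. I79 and I10 are the names of 2 isolates, each sampled young, that is proliferating, and old, that is passaged until replicative exhaustion, with no agent or genetic change named in the labels. I79 ICM is the I79 isolate after inflachromene (ICM), a compound known to bind HMGB1 and HMGB2 in chromatin, with no dose or time in the labels. WT and HMGB2 KD are IMR90 of wild type genotype and IMR90 with HMGB2 knocked down, which the study did with siRNA, and neither the isolate nor the treatment of WT with a control siRNA is stated. All groups are thus 1 line grown in culture, and the titles list 2 replicates each, without saying whether these were separate cultures. P-values between WT and HMGB2 KD then measure only the spread between these libraries, which may be technical.

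Entry into senescence is a lasting arrest of cell division that comes with a changed set of transcripts, among them the targets of the tumour suppressor p53 and a range of secreted signals. Several of the 10 genes are best known outside connective tissue: KISS1 encodes the precursor of kisspeptin, made by placenta and hypothalamus, ANKRD1 encodes a stress-responsive ankyrin repeat protein of muscle, and HBD encodes the delta chain of adult haemoglobin. The beta-globin cluster, in which HBD lies, holds embryonic, fetal and adult globin genes in the order of their use during development, and it is known for its expression in red cell precursors.

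The old and young tables held between 14598433 and 20055750 gene reads, the WT and HMGB2 KD libraries between 33561766 and 41168932, and the ICM libraries 13290131 and 10971132. Each old or young table is 1 column for a group of 2 listed replicates, so its values have no SD and no n. Levels across tables are CPM, read counts scaled to the summed depth of the 24638 genes that all tables list, and the 3 kinds of table were counted in different ways. The 8 fibroblast markers, COL1A1 and VIM among them, were at 1 CPM or more in every table and library, with a summed level between 12567 and 33525 CPM. The 6 epithelial markers were each under 1 CPM throughout. Of 5 neuronal markers, 3 reached 1 CPM in each of the 4 old and young tables, with STMN2 at 0 in both young ones. Of 5 muscle markers, 3 reached 1 CPM in each young table and 2 in each old one. Summed levels of other marker lists differed between young and old, and such a sum can be led by 1 gene. Muscle markers summed to 50.9 and 43.7 CPM in I79 and I10 young and to 5.34 and 4.13 CPM in the old tables, and neuronal markers to 289 and 302 CPM young and 37.3 and 57.5 CPM old. The 4 endothelial markers summed to 0.716 and 0.420 CPM young and 7.32 and 2.44 CPM old, with PECAM1 and CDH5 at 0 in all 4 tables. Their part in the values of the set was not tested. In bulk samples, fewer cells of a type and less RNA per cell cannot be told apart.

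The promoter sequences of the set are shown as a description. The step from near 0 to on that the genes share is the rule that chose them. RefSeq, in its GRCh38.p14 table, holds the promoter of 5 of the 10 genes. The 4 outside the beta-globin cluster are printed here as the 250 bases before the start, 5′ to 3′ on the gene's own strand. Each was found once in GRCh37, the build of the coordinates here. Capitals mark matches, on either strand, to the TATA box (TATAAA), the GC box (GGGCGG), the AP-1 motif (TGANTCA), the TEAD motif (GGAATG) and the p53 motif, a 10-base element given by name alone. The other motifs searched were the CCAAT box (CCAAT) and the CRE (TGACGTCA).
KISS1, chr1:204165620-204165869, minus strand: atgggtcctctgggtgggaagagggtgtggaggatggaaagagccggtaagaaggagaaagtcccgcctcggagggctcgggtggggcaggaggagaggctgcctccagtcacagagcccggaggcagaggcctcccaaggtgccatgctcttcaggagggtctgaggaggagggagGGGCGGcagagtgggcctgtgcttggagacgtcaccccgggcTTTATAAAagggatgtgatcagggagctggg
TMEM178B, chr7:140773614-140773863, plus strand: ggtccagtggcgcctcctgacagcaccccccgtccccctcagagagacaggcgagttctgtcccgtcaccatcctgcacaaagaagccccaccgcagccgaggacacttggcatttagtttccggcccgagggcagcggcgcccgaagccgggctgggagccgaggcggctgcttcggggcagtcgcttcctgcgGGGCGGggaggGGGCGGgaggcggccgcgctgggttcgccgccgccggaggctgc
PURPL, chr5:27472149-27472398, plus strand: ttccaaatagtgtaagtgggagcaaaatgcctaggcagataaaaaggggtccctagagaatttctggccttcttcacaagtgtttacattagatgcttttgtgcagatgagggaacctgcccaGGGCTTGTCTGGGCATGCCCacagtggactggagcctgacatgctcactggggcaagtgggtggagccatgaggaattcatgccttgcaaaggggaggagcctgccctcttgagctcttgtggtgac
ANKRD1, chr10:92680845-92681094, minus strand: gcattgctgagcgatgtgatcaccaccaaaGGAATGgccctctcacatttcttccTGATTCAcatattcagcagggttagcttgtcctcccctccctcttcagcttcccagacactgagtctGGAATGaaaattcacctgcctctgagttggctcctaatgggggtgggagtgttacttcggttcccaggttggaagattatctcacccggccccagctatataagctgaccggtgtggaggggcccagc

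No motif of the 7 was held by all 4 windows, and KISS1 and TMEM178B shared the GC box. KISS1 carried a TATA box, read on both strands at 31 and 29 bases before the start in overlapping letters, and 1 GC box. TMEM178B, with a GC content of 72.8% and 26 CpG dinucleotides, carried 2 GC boxes and no TATA box. PURPL, with 0 CpG dinucleotides, carried the p53 motif at 127 and 117 bases before the start, so that the copies abut with no spacer. ANKRD1, a known target gene of YAP and TEAD factors, carried the TEAD motif at 220 and 128 bases before the start and 1 AP-1 motif. Among 35116 RefSeq promoters cut to the same 250 bases, 10.7% held the TATA box, 42.6% the GC box, 6.57% the AP-1 motif, 11.9% the TEAD motif and 5.57% the p53 motif. The CCAAT box was in 32.0% of these promoters and the CRE in 1.65%. Abutting p53 motifs were in 6 promoters, or 0.0171%. These matches are letters in a window and were not tested as sites.

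For KISS1, TMEM178B and ANKRD1 the RefSeq start was also the start of the transcript that held all of their old reads, and for PURPL it lay 46 bases downstream of the start of the leading transcript. The windows thus lie at or near the annotated starts of these transcripts. KISS1 and ANKRD1 were listed with 1 transcript each and TMEM178B with 2, and assigning reads to a transcript does not locate where it starts in old cells. For HBD the RefSeq start lay 9174 bases downstream of the leading transcript's start, and its promoter is not printed for that reason. It held the AP-1 and TEAD motifs, as that of ANKRD1 did, and the CCAAT box.

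In the young tables the 10 genes held between 0 and 10 estimated reads, and in the old tables between 108 and 1292. ENSG00000290652 and TMEM178B were at 0 reads in both young tables. PURPL (9 and 2 reads young, 312 and 110 old in I79 and I10) and SLC8A1-AS1 (5 and 10 young, 221 and 108 old) were the genes nearest inside both limits. RRAD (12 and 0 young, 440.3 and 211 old) and WNT16 (12 and 7 young, 741 and 567 old) lay just outside the young limit. SLA (2 and 6 young, 136 and 97 old) and TAC3 (9 and 5 young, 114 and 99 old) lay just outside the old limit. The converse rule, at least 100 reads in both young tables and at most 10 in both old ones, was met by 4 genes, GDAP1, PLEKHG4B, PTGFRN and TBX4. PSG1 and PSG3 were the 2 PSG genes within the limits.

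**Figure D1:**
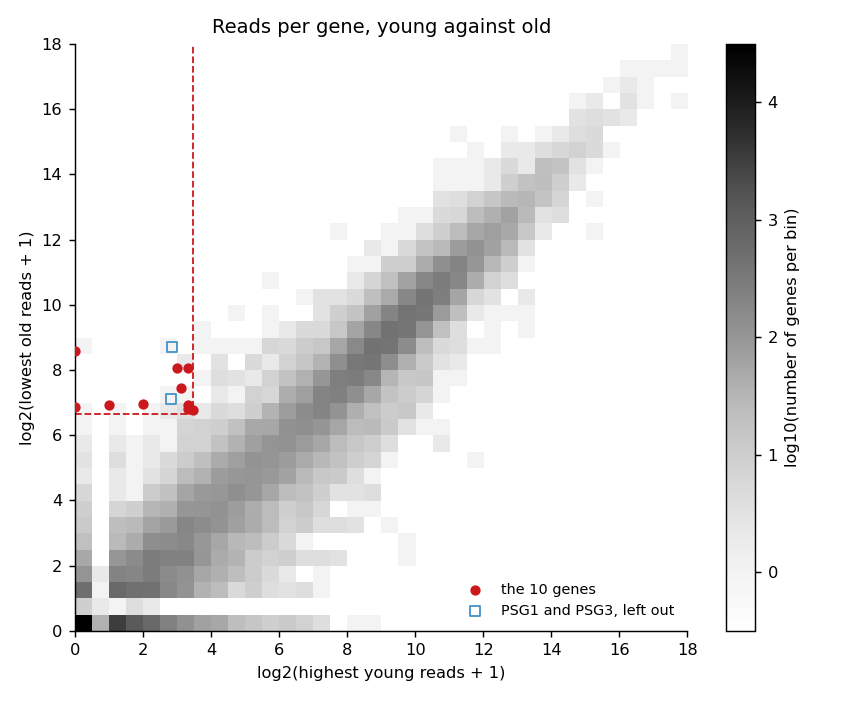
Each gene of the old and young tables is placed by its highest young reads (x axis, log2 of reads + 1) and its lowest old reads (y axis, log2 of reads + 1), with grey showing how many genes share a bin. Dashed lines are the limits of 10 and 100 reads, red points are the 10 genes and open squares are PSG1 and PSG3, all of them far from the diagonal on which most genes lie.

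By read number and by level per transcript length the genes fell in different orders. TMEM178B was the second by reads in I79 old and the first in I10 old, yet it was the ninth of 10 by mean old TPM (abundance scaled for both depth and transcript length), at 4.69 TPM. KISS1 led by mean old TPM at 115 TPM, followed by ENSG00000284931 at 63.9 TPM, SLC8A1-AS1 at 26.7 TPM and HBD at 25.4 TPM. PURPL, CLEC2B and ENSG00000290652 stood at 18.1, 16.6 and 9.19 TPM, and ANKRD1 at 6.13 TPM. SEMA6A was the lowest at 2.82 TPM. With no replicate values behind these means, neighbours in this order cannot be separated by their spread.

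**Figure D2:**
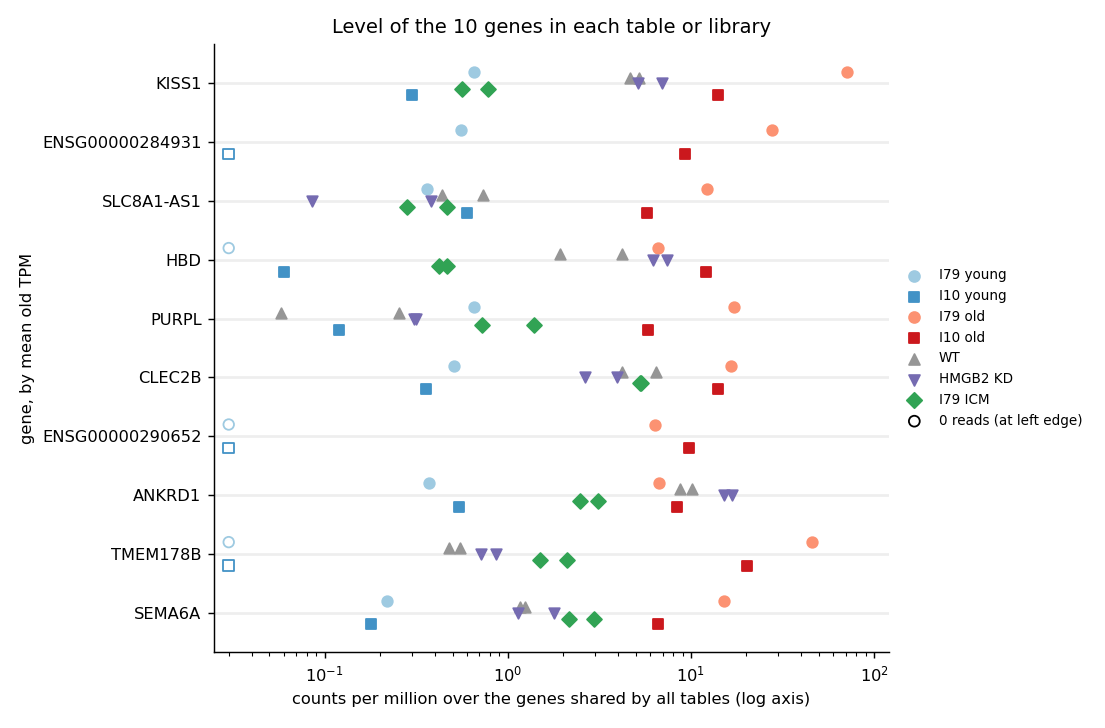
Points are the level of each gene in each table or library in CPM over the genes that all tables list (x axis, log scale), with genes ordered by mean old TPM and open symbols at the left edge for 0 reads. Old tables lie to the right of young tables in every row, as the rule requires, while the WT, HMGB2 KD and ICM libraries all fall between them for CLEC2B, TMEM178B and SEMA6A, and ANKRD1 in WT and HMGB2 KD lies right of both old tables. ENSG00000284931 and ENSG00000290652 have no WT, HMGB2 KD or ICM points, since those tables do not list these identifiers.

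Among genes for signals and cell surface proteins, KISS1 (chromosome 1, 204159469 to 204165619, minus strand) had the highest mean old TPM. It held 9 reads in I79 young, 5 in I10 young, 1292 in I79 old and 264 in I10 old. In CPM the old level was 108-fold the young one in I79 (95% interval from counting error 56.9 to 237.5) and 46.8-fold in I10 (19.8 to 145.2). I79 old stood far above I10 old, by 5.07-fold (4.44 to 5.81), the largest difference between isolates in the set. WT libraries held 164 and 160 counts, HMGB2 KD libraries 180 and 272, and ICM libraries 10 and 6. Thus WT and HMGB2 KD lay above both young tables and below both old ones, while ICM, at 0.671 ± 0.15 CPM (SD, n = 2), stood near I79 young at 0.657 CPM.

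SEMA6A (chromosome 5, 115779251 to 115910519, minus strand) encodes a transmembrane semaphorin that guides axons and migrating cells. It held 3 reads in each young table, 275 in I79 old and 124 in I10 old, a 69.2-fold (23.4 to 337.5) and a 36.6-fold difference (12.2 to 179.9). WT libraries held 37 and 43 counts, HMGB2 KD libraries 40 and 70, and ICM libraries 38 and 23. All 6 libraries were above both young tables and below both old tables in CPM, with WT at 1.21 ± 0.054, HMGB2 KD at 1.47 ± 0.46 and ICM at 2.56 ± 0.56 CPM (SD, n = 2 each). The transcript SEMA6A-202 took 75.2% and 71.4% of the gene's old reads in I79 and I10.

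CLEC2B (chromosome 12, 10004968 to 10021985, minus strand) encodes a C-type lectin that serves as a ligand for the natural killer cell receptor NKp80. Its reads were 7 in I79 young, 6 in I10 young, 301 in I79 old and 263.8 in I10 old. The old level was 32.5-fold (15.6 to 81.4) the young one in I79 and 39.0-fold (17.7 to 107.1) in I10, and the old tables of the isolates differed by 1.18-fold with an interval that includes 1 (0.999 to 1.40). CLEC2B was the most even of the set across the other groups, with 204 and 144 counts in WT, 138 and 103 in HMGB2 KD and 68 and 57 in ICM, or 5.32 ± 1.62, 3.29 ± 0.93 and 5.32 ± 0.058 CPM (SD, n = 2 each). KLRF1, the neighbouring gene that encodes NKp80, held 0 reads in both young tables and 3 and 1 in the old ones. It had 27 and 26 counts in WT, 12 and 6 in HMGB2 KD, and 2 and 0 in ICM.

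TMEM178B (chromosome 7, 140773864 to 141180180, plus strand) encodes a multi-pass membrane protein. It held 0 reads in both young tables, 836.3 in I79 old and 381.4 in I10 old, all on the transcript TMEM178B-202. With 3 reads taken as the most that a count of 0 leaves room for, the old level in I79 was at least 210-fold higher than the young one, and that in I10 at least 113-fold higher. These were the largest lower bounds in the set, and I79 old was 2.28-fold (2.01 to 2.58) above I10 old. WT libraries held 15 and 19 counts, HMGB2 KD libraries 30 and 28, and ICM libraries 27 and 16. In CPM these were 0.513 ± 0.054, 0.787 ± 0.10 and 1.80 ± 0.42 (SD, n = 2 each), above both young tables and far below 46.0 and 20.3 CPM in the old ones. Of the ICM reads, 23 of 27 and 10 of 16 lay in the 3′ untranslated region. The neighbours MRPS33 and AGK, at 58.8 kb and 70.9 kb, held between 306.5 and 615.4 reads in all 4 old and young tables.

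Over log2(CPM + 1) in the 10 tables and libraries, the genes of the set most like TMEM178B were SEMA6A, with a root mean square difference of 0.78, PURPL with 0.81 and SLC8A1-AS1 with 0.98. CLEC2B and KISS1 followed at 1.32 and 1.34. The old and young tables that chose the genes weigh in this measure.

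The lncRNA PURPL (chromosome 5, 27217821 to 27497978, plus strand) is a p53 target that is known to restrain p53 levels. It held 9 reads in I79 young, 2 in I10 young, 312 in I79 old and 110 in I10 old, a 26.2-fold (13.6 to 57.8) and a 48.7-fold difference (13.2 to 407.2). The leading transcript, PURPL-204, took 50.1% and 58.1% of the old reads. WT libraries held 8 and 2 counts, HMGB2 KD libraries 11 and 12, and ICM libraries 9.3 and 14.8 reads. Both ICM libraries, at 1.06 ± 0.47 CPM (SD, n = 2), lay above both young tables, those of WT and HMGB2 KD did not, and no library of any of the 3 groups came near the 17.2 and 5.84 CPM of the old tables.

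PURPL was the only gene of the set among a list of 47 p53 targets. For the lists, differences between old and young are on the log2(CPM + 1) scale, and a gene counts as higher or lower when it passes 0.6 in both isolates, with no test. Of the 38 other p53 targets with at least 40 reads over the 4 tables, 10 were higher in both old tables and 2 lower, beside 7.79% higher and 16.7% lower of all 14760 genes so filtered. Their median difference was 0.90 in I79 and 0.16 in I10, beside -0.14 and -0.23 for all genes. CDKN1A, the cell cycle inhibitor p21, had 5533 reads young and 43308 old in I79 and 6539 young and 29068 old in I10 (differences of 2.56 and 1.97), and GDF15, a secreted stress signal, had differences of 4.33 and 2.45. MDM2, the main antagonist of p53, had differences of 0.23 and -0.18. After HMGB2 knockdown 2 of 37 other p53 targets tested were called higher and 2 lower, beside 2.86% and 2.34% of all genes tested.

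SLC8A1-AS1 (chromosome 2, 40013593 to 40482349, plus strand) is a lncRNA transcribed opposite SLC8A1, which encodes a sodium-calcium exchanger. It held 5 reads in I79 young, 10 in I10 young, 221 in I79 old and 108 in I10 old. The old level was 33.4-fold (14.1 to 103.7) the young one in I79 and 9.56-fold (5.01 to 20.5) in I10, the smallest fold of the set. WT libraries held 23 and 15 counts, HMGB2 KD libraries 3 and 15, and ICM libraries 6 and 3, so that none of the 3 groups had every library above both young tables. The transcript SLC8A1-AS1-207 took 76.3% and 78.7% of the old reads. SLC8A1 itself stood at 70.9 and 63.4 CPM in the young tables and at 45.6 and 71.2 CPM in the old ones. Because counting by strand is not stated, reads of the overlapping pair could have been shared.

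ANKRD1 (chromosome 10, 92671853 to 92680844, minus strand) encodes the cardiac ankyrin repeat protein, a cofactor of transcription that is induced by stretch and injury. It held 5.1 reads in I79 young, 9 in I10 young, 121 in I79 old and 159 in I10 old, all on 1 transcript. The old level was 18.3-fold (7.61 to 57.3) the young one in I79 and 15.6-fold (8.04 to 34.8) in I10, and the interval of I79 old over I10 old included 1 (0.789-fold, 0.618 to 1.01). WT libraries held 276 and 349 counts, HMGB2 KD libraries 588 and 592, and ICM libraries 32 and 33. ANKRD1 was the only gene of the set whose WT and HMGB2 KD libraries were all above both old tables, at 9.44 ± 0.98 and 16.0 ± 1.19 CPM against 6.66 and 8.44 CPM. ICM, at 2.80 ± 0.44 CPM (SD, n = 2), lay between the young and the old tables.

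The remaining 3 genes all lie in the beta-globin cluster on chromosome 11. HBD (5253908 to 5264887, minus strand) held 0 reads in I79 young, 1 in I10 young, 119.4 in I79 old and 228.2 in I10 old. ENSG00000290652 (5262335 to 5264763, minus strand), a lncRNA that overlaps the far upstream part of HBD on the same strand, held 0 reads in both young tables, 115.1 in I79 old and 182.7 in I10 old. ENSG00000284931 (5269500 to 5276013, minus strand), annotated as coding and spanning the fetal globin gene HBG1 and part of HBG2, held 7.6 reads in I79 young, 0 in I10 young, 502.3 in I79 old and 174.1 in I10 old. HBD and ENSG00000290652 were lower in I79 old than in I10 old, at 0.541-fold (0.430 to 0.678) and 0.652-fold (0.511 to 0.827), whereas ENSG00000284931 was higher in I79 old by 2.99-fold (2.51 to 3.58).

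In HBD most of the old reads were assigned to the long transcript HBD-204, at 84.6% in I79 and 80.3% in I10, which starts 0.124 kb upstream of ENSG00000290652 and 0.12 kb upstream of the pseudogene HBBP1 and runs over both. The split of reads among these overlapping units is an estimate and is uncertain. HBBP1 held 1 and 0 reads young and 86.9 and 127.3 reads old in I79 and I10, so it missed the rule in I79 alone. In I79 old the level of HBD was at least 30.04-fold higher than in I79 young, and in I10 old it was 202-fold the young one (35.9 to 8009). For ENSG00000290652 the old level was at least 29.0-fold and at least 53.9-fold higher. ENSG00000284931 was 47.4-fold higher in I79 old (23.9 to 110.3) and at least 51.4-fold higher in I10 old.

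Over the 10 annotated units of the cluster, reads summed to 24.2 in I79 young and 29.2 in I10 young, and to 1306 in I79 old and 778.9 in I10 old. The 3 genes of the set took 56.4% and 75.1% of the old sums. The adult gene HBB held between 0 and 7 reads and the fetal gene HBG1 between 0 and 5.2 reads in the 4 tables. ENSG00000284931 overlaps HBG1 and HBG2 on the same strand, so the split of reads among them is also an uncertain estimate. HBG2 held 10.2 and 13 reads young and 183.9 and 37.1 old, and the embryonic gene HBE1 held 2 and 5 reads young and 271.7 and 14 old, both far higher in I79 old than in I10 old. The long HBG2 and HBE1 spans reach 262 kb upstream of HBD, past the cluster itself.

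**Figure D3:**
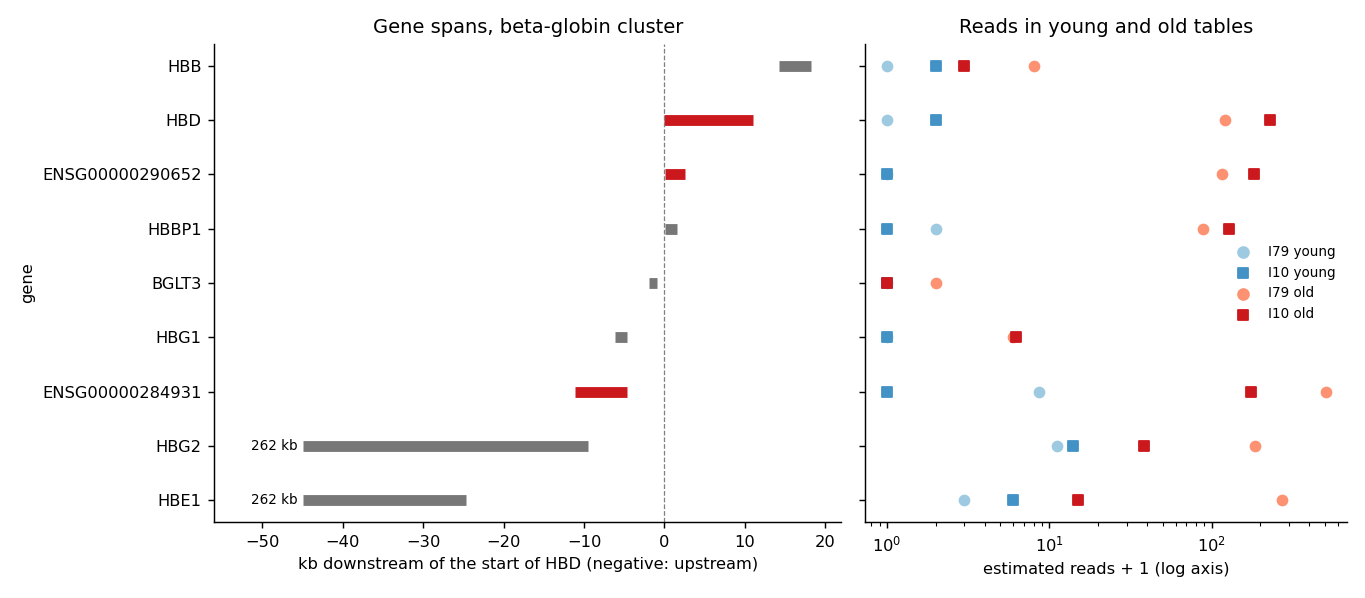
Left, spans of annotated genes of the beta-globin cluster in kb from the annotated start of HBD, with genes of the set in red and the spans of HBG2 and HBE1 cut short, their far ends written beside them. Right, estimated reads + 1 (log scale) in the 4 old and young tables, where HBD, ENSG00000290652 and HBBP1 have more reads in I10 old and ENSG00000284931, HBG2 and HBE1 more in I79 old.

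Genes that define red cell precursors were near 0 in the same tables. Of a list of 12 erythroid genes, chosen after the members were known, 2 (EPOR and TFRC, which many other cells also express) were at 1 CPM or more in each table and library. ALAS2, KLF1, GATA1 and HBA2 were at 0 in all 4 old and young tables. The summed level of the list was 379 and 366 CPM in I79 and I10 young and 367 and 368 CPM in the old tables, nearly all of it TFRC (between 355 and 372 CPM), so the sum bears little on the other genes.

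In WT cells HBD had 61 and 144 counts, in HMGB2 KD 259 and 242, and in ICM 6 and 4.5 reads. WT at 3.06 ± 1.59 CPM lay between the young and old tables, HMGB2 KD at 6.80 ± 0.86 CPM overlapped the old range of 6.58 to 12.1 CPM, and ICM at 0.445 ± 0.030 CPM (SD, n = 2 each) stood above both young tables and far below the old ones. Counts in WT, HMGB2 KD and ICM do not separate the transcripts of HBD, while most old reads were assigned to HBD-204. These levels may therefore not be of the same transcript. HBG2 had 543 and 501 counts in WT, 389 and 254 in HMGB2 KD, and 14.8 and 16.5 reads in ICM. HBG1 held the same 14.8 and 16.5 reads in ICM, but 19 and 9 counts in WT. The ICM reads of these 2 genes may thus be split between them and cannot be set beside the WT counts of HBG2. The WT, HMGB2 KD and ICM libraries do not list ENSG00000284931, so their HBG2 may hold reads that fall to that unit in old and young.

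**Figure D4:**
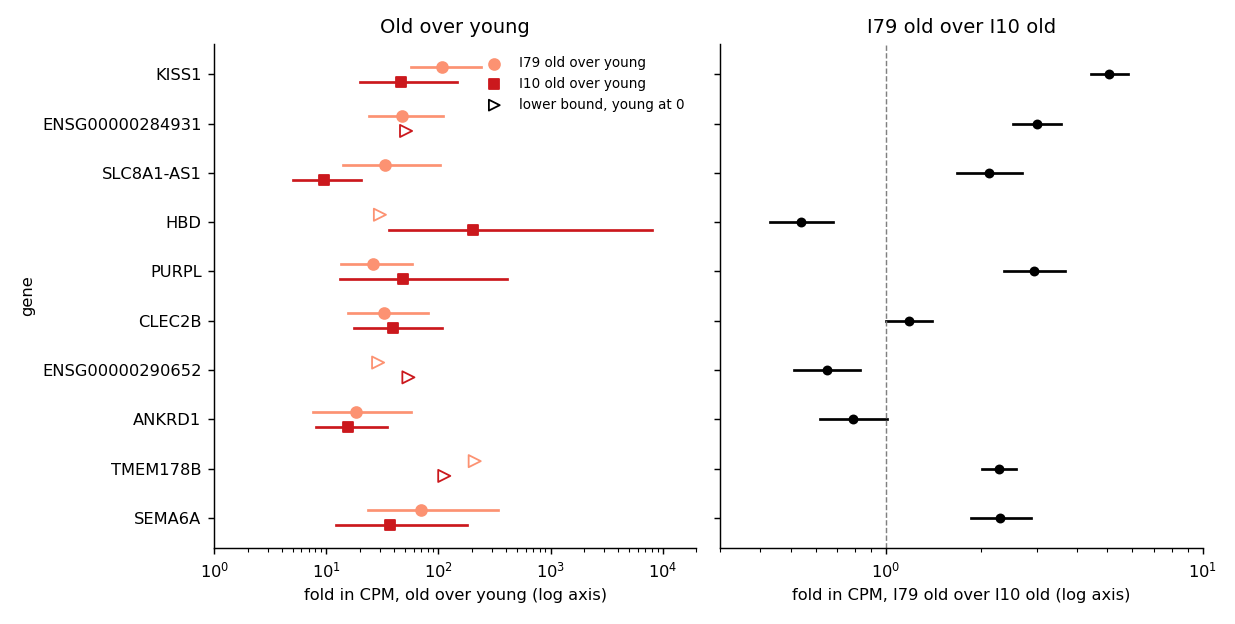
Left, the fold of old over young in CPM for each isolate (log scale), with lines for the 95% interval from counting error and open triangles for lower bounds where the young table held 0 reads. Right, I79 old over I10 old (log scale), where 6 genes lie right of 1 with their interval, 2 lie left of it and the intervals of CLEC2B and ANKRD1 include 1.

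Between the isolates, 6 of the 10 genes were higher in I79 old than in I10 old with an interval above 1, and 2 were lower with an interval below it. Of all 10302 genes with at least 100 reads in both old tables, 35.8% and 20.2% did so. Beside the genes described above, the ratios were 2.94 for PURPL (2.36 to 3.69), 2.30 for SEMA6A (1.85 to 2.87) and 2.12 for SLC8A1-AS1 (1.68 to 2.70). All of these intervals cover counting error only, and no replicate spread exists for either table.

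The HMGB2 knockdown asks which transcripts change when this chromatin protein, which is lost in senescence, is depleted, and it was not used to choose the genes. The target fell in the libraries labelled HMGB2 KD, from 929 and 1021 counts in WT to 118 and 145, by edgeR's quasi-likelihood test a change of -2.99 on the log2 scale (SE 0.16) with an adjusted p of 8.28e-07. On the CPM scale shared by all tables, HMGB2 in WT stood at 29.4 and 29.6 CPM. In HMGB2 KD it stood at 3.37 and 3.71 CPM, and in I79 ICM at 4.43 and 5.93 CPM. It stood at 138.6 and 162.7 CPM in I79 and I10 young and at 38.8 and 44.5 CPM in I79 and I10 old. The WT and ICM values were thus below the old ones, but a difference in counting cannot be told apart from one between the cells. For the test, values are TMM-scaled CPM, and calls needed an absolute log2 fold change over 0.6 with an adjusted p (Benjamini-Hochberg over 15338 genes) under 0.01.

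Of the 8 genes that the tables list, 1 was called higher and 0 lower after HMGB2 knockdown, beside 2.86% of all tested genes called higher and 2.34% called lower. ANKRD1 was that gene, with WT libraries at 8.06 and 9.35 CPM and knockdown libraries at 16.1 and 14.8 CPM (log2 fold change 0.83, SE 0.16, adjusted p 0.00504 by edgeR). The call was lost without WT replicate 1 (adjusted p 0.060), as it was when either knockdown library was left out (0.018 without the first and 0.016 without the second). HBD had WT values of 1.78 and 3.86 CPM against knockdown values of 7.07 and 6.07 CPM, and its difference of 1.21 on the log2 scale (SE 0.31; 0.77 without WT replicate 1 and 1.88 without WT replicate 2) missed the limit, with an adjusted p of 0.021 by edgeR. It was called by DESeq2, with no filter on low counts, with 1 RUVs factor and without WT replicate 2 (adjusted p 0.0072, 7.41e-05, 4.04e-06 and 2.65e-05), while without WT replicate 1 its adjusted p was 0.20. With the limit on the adjusted p at 0.05 the set had 2 genes called higher and 0 lower, beside 4.30% and 3.44% of all tested genes. HBG2, its neighbour in the cluster, went from 15.9 and 13.4 to 10.6 and 6.37 CPM (log2 fold change -0.79, adjusted p 0.031), which was not called.

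The other 6 genes did not pass, and 2 of them were too low to show much. TMEM178B had 0.438 and 0.509 CPM in the WT libraries, and knocked down ones had 0.820 and 0.702 CPM (log2 fold change 0.68, SE 0.55, adjusted p 0.51 by edgeR). KISS1 and SEMA6A had log2 fold changes of 0.37 and 0.35 (SE 0.24 and 0.42, adjusted p 0.38 and 0.68), and PURPL 1.07 on 2 to 12 counts (SE 0.87, adjusted p 0.51). CLEC2B and SLC8A1-AS1 had negative values of -0.63 and -1.19 (SE 0.29 and 0.76, adjusted p 0.21 and 0.38). The unadjusted p of CLEC2B was 0.049 by edgeR, and DESeq2 called 0 of the set lower. PURPL entered the test on the counts of its HMGB2 KD libraries.

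**Figure D5:**
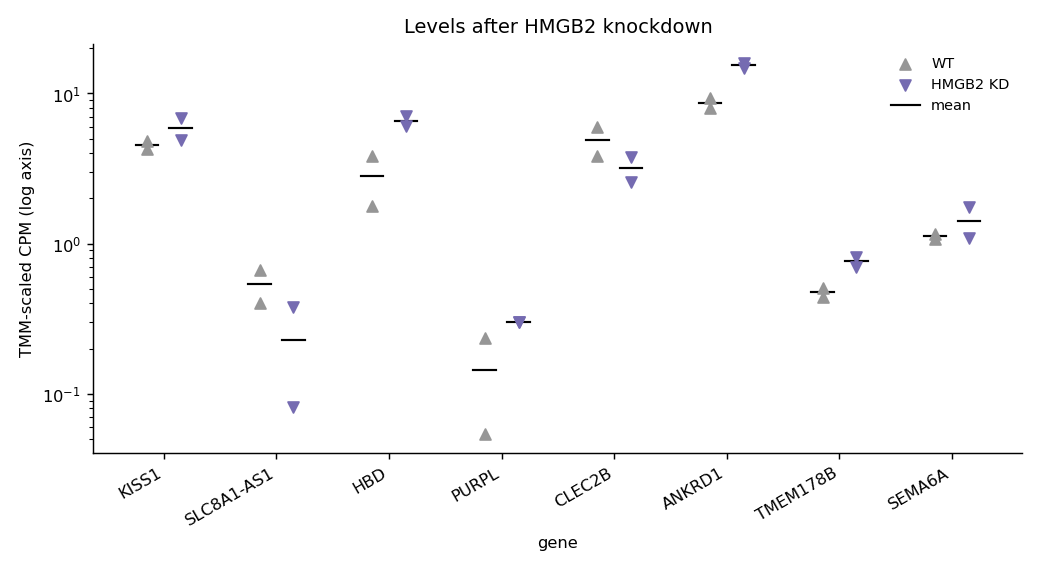
Points are TMM-scaled CPM (log scale) of the 8 genes in the 2 WT and 2 HMGB2 KD libraries, with a bar at the mean of each group. KISS1, HBD, PURPL, ANKRD1 and TMEM178B in HMGB2 KD lie above their WT libraries, CLEC2B and SLC8A1-AS1 lie below theirs, and SEMA6A overlaps. Of all tested genes, 53.8% have groups that do not overlap.

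In the libraries that did not choose them, the genes differed in whether they were detected. At 1 CPM or more in every library were 5 of the 8 genes in WT, 5 in HMGB2 KD and 4 in ICM, beside 47.3%, 47.1% and 52.3% of the 24638 genes that all tables list. Among the 9903 listed genes with at least 100 reads in both old tables, the same shares were 95.1%, 95.1% and 99.0%. The 5 genes in WT and in HMGB2 KD were ANKRD1, CLEC2B, KISS1, HBD and SEMA6A, and the 4 in ICM were CLEC2B, ANKRD1, SEMA6A and TMEM178B. KISS1 and HBD thus stood above 1 CPM in WT and HMGB2 KD and under it in ICM, and TMEM178B the other way round.

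Set against the young tables, 6 of the 8 genes were above both in every WT library, 6 in every HMGB2 KD library and 6 in every ICM library. Against the old tables, 7 genes were below both in every WT library, 6 in every HMGB2 KD library and 8 in every ICM library. Of the 13103 other listed genes with at least 40 reads over the 4 old and young tables, 37.3%, 32.6% and 39.9% were above both young tables in WT, HMGB2 KD and ICM, and 32.5%, 33.3% and 39.3% were below both old tables. Since the rule set the young values near 0 and the old values high, these positions are a description, and the differences in counting between tables cannot be told apart from those between the cells.

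KISS1 was the only gene of the set in a list of 27 placental hormone and trophoblast genes. Of the 5 others in that list with at least 40 reads, 0 were higher in both old tables and 1 was lower, beside 7.79% and 16.7% of all genes so filtered. After HMGB2 knockdown edgeR called 0 of 8 tested higher and 2 lower, beside 2.86% and 2.34% of all genes tested. The other 8 lists, which cover neuropeptides, synapse, muscle, keratin, cytokine, matrix, germline and interferon genes, held 0 genes of the set.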

How the data were processed

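For old and young cells the authors deposited estimated counts per transcript with TPM values and effective lengths, 1 table per group. Reads were summed per gene through GENCODE v44 lifted to GRCh37, which matched 97.7% of transcripts and between 97.2% and 97.4% of reads. The files for WT and HMGB2 KD hold raw counts per gene symbol, as the authors deposited them for each library. Summary rows and rows without a gene name (together between 16.9% and 18.0% of counts) stayed out of the totals. For ICM they deposited fractional estimated counts per gene and transcript region. The submitters' processing notes name STAR 2.6.0c, featureCounts and GRCh37. The program behind the estimated counts and the use of strand are not given in the sources used here.

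HMGB2 KD was tested against WT with edgeR 4.0.16 in R 4.3.3 (quasi-likelihood test, TMM scaling, filterByExpr, Benjamini-Hochberg adjustment), which was tested on simulated data. The thresholds, an adjusted p under 0.01 and 0.6 on the log2 scale, are those of the study's methods. Its results name an adjusted p under 0.05 with the same 0.6 for mRNA after ICM. DESeq2 1.42.0, another scaling, no filter on low counts, 1 RUVs factor, a replicate block and leaving out each library were alternatives. Fold intervals are 95% exact Clopper-Pearson intervals on the old share of a gene's reads, rescaled by depth. They and the floor of 3 reads for a count of 0 cover counting error only. The rule for naming genes took TMEM178B, up to 25 genes by mean old TPM, so all 10, the genes nearest each limit and HMGB2. Genes beside the members, such as KLRF1, CDKN1A and the globin genes, were named after their values were seen. The members and lists were chosen with earlier results of these data known.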

Additional observations from a re-analysis of the deposited data

How the results depend on the processing

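The number of genes near silent young and on old depended on the limits. It was 1 gene (TMEM178B) with at most 5 and at least 200 reads, 84 genes, all 10 of the set among them, with at most 20 and at least 50 reads, and 5 genes with limits of 0.5 and 5 CPM, which left out ANKRD1, ENSG00000284931, KISS1, PURPL and SLC8A1-AS1. With reads scaled by transcript length it was 9, of which 4 were in the set, and with overlapping genes of the same strand summed it was 10, of which 9 were. That sum left out ENSG00000284931 and added HBBP1. The number of genes of the set called higher after HMGB2 knockdown was 2 (ANKRD1 and HBD) with DESeq2, with no filter on low counts, with 1 RUVs factor, with an adjusted p under 0.05 (4.30% of all tested genes) and with the replicate block. It ranged from 0 to 2 when 1 library was left out. WT and HMGB2 KD share replicate numbers only: same-numbered libraries deviated together with a correlation of 0.181, and there are 2 pairs, so the block result is given here alone. The block raised the number of all called genes from 797 to 1243 and changed no other call in the set. No filter on low counts gave 1175 called genes, and leaving out 1 library between 312 and 999. At a minimum of 2 CPM in every WT library, 3 genes of the set passed, against 5 at 1 CPM. The log2 fold change of SEMA6A ranged from -0.028 without HMGB2 KD replicate 2 to 0.64 without HMGB2 KD replicate 1. No gene of the set was called lower under any alternative run. DESeq2 gave PURPL and SLC8A1-AS1 no adjusted p. At 2 to 23 counts, those genes give little precision in WT and HMGB2 KD.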
